A study of Mus musculus with 15 samples.

Results

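The 32 genes described here encode the chaperones, folding enzymes, stress sensors, degradation factors, translocon subunits and export coat subunits of the endoplasmic reticulum (ER). They were taken as a named list, which was chosen with earlier results of these data known. Each was read from the probe set that the platform annotation gives to that gene alone. Where several existed, the one with the highest mean over all 15 arrays was used. All 32 had a probe set among the 18193 genes with one, and all 32 were among the 13703 genes that passed the filter on low values. Each lay above its array's 40th percentile on all 15 arrays, so no gene of the list entered through 1 group alone.

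The cells were macrophages grown from mouse bone marrow for 7 days in M-CSF, on which macrophages depend to form and survive. All 5 groups share this culture, and each was read on 3 one-colour arrays. M1 cells were polarised with E. coli lipopolysaccharide (LPS) and interferon-gamma. A second group was polarised to M2 with IL-4 and IL-13 and given nutlin-3a, which blocks the grip of MDM2 on p53. Another group was polarised to M2 in the same way and given 10058F4, an inhibitor of the pairing of MYC with MAX. M2 cells received IL-4 and IL-13 alone, and M0 cells were left untreated. The labels read here do not state the mouse strain, genotype or age, nor any dose, polarisation time or vehicle. The samples are called biological replicates, but whether each had its own mouse or culture is not said. The p-values therefore cover the spread among these samples alone, and that spread may be technical.

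Secreted and membrane proteins enter the ER through the SEC61 channel, are folded there by the HSP70-type chaperone BiP, lectin chaperones and disulfide isomerases, and leave in COPII vesicles. Proteins that fail to fold are passed to the ubiquitin ligase HRD1 and degraded by the proteasome in the cytosol. When unfolded protein builds up, the sensors IRE1, ATF6 and PERK start the unfolded protein response, in which the transcription factors XBP1 (made from spliced mRNA) and cleaved ATF6 raise the genes of this list. In macrophages IRE1 is also known to act downstream of Toll-like receptors.

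A sequence shared by many targets of this response is the ER stress element, which reads CCAAT, then 9 bases of any kind, then CCACG, on either strand. It was searched in the 250 bases before the transcription start in the RefSeq promoter table of GRCm38.p6, which held windows for 27 of the 32 genes (Hyou1, Manf, Atf6, Derl1 and Sec61a1 were not analysed here). The element stood in the windows of 9 of 27 genes (33.3%), against 17 of the 11053 tested genes with a window (0.154%) and 35 of all 27025 genes with one (0.13%). The 9 were Hspa5, Hsp90b1, Calr, Canx, Dnajc3, Creld2, Pdia6, Syvn1 and Derl3. These 9 are themselves among the 17 and the 35. The list names genes of a response whose targets share this element. Its high share was therefore built into the choice of genes and is not a result of these data. A second form, ATTGG, 1 base of any kind and CCACG, was searched on both strands. It was found in Herpud1 alone among the 27 and in 5 of the 11053 tested genes. The XBP1-type element TGACGTGG, whose last 5 letters are the reverse complement of CCACG and can therefore overlap the other motifs, was found in Sec24d alone (3.7%), against 99 of the 11053 tested genes (0.896%). A match describes letters in a window and is not a measured binding site.

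The stretches around the element are shown for the 6 genes among these 9 with the largest differences in M2 against M0 cells, to show the letters that 9 of the 27 windows share. They run 5′ to 3′ on the strand of the gene, with the outer blocks of the element in capitals (CCAAT and CCACG, or CGTGG and ATTGG where it lies on the opposite strand).
Dnajc3, + strand, chr14:118937807-118937865: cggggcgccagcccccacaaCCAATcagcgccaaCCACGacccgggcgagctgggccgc
Hspa5, + strand, chr2:34772005-34772063: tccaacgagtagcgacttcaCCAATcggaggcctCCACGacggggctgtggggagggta
Creld2, + strand, chr15:88819500-88819558: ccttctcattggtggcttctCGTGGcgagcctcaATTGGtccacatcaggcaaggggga
Pdia6, + strand, chr12:17266471-17266529: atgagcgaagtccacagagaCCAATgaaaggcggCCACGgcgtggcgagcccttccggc
Hsp90b1, - strand, chr10:86705513-86705676: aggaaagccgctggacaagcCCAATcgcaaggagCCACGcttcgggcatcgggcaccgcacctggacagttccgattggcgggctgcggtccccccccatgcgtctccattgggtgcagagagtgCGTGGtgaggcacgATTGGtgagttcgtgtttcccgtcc
Derl3, + strand, chr10:75893222-75893280: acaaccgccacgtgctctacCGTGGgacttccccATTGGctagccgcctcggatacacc
Hsp90b1 held 2 elements, 1 on each strand, within 164 bases. The Hspa5 stretch ended 27 bases before the start, and the Hsp90b1 stretch began 232 bases before it. The 6 were chosen by size of difference alone. Pdia6, Hsp90b1 and Derl3 did not pass the test of M2 against M0 cells described below.

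Values are log2 expression per probe set after RMA, the authors' normalization, so 1 unit stands for a 2-fold change. They are array signals, and levels are not compared between genes. A gene is called higher or lower at a Benjamini-Hochberg adjusted p under 0.05 over all 13703 tested genes in limma, and errors of differences are standard errors (SE) of that fit. Within groups, arrays correlated across probe sets (which are not replicates) with r of 0.9893 to 0.9974, and M1 replicate 2 was the least like its group. All 11 macrophage markers measured lay above the 40th percentile in every group. Markers of other cells passed it too, as given below, so this does not settle which cells were present. In M1 against M0 cells 5 of the 11 were called higher and 4 lower. Fcgr1 was at 12.51 in M1 and 10.53 in M0 cells, and Cebpa at 6.51 in M1 and 9.34 in M0 cells. All 6 genes of the M1 check list were called higher in M1 than in M0 cells, and 5 of the 6 of the M2 check list were called higher in M2 than in M0 cells; Ccl17 was at 4.91 in M2 and 4.78 in M0 cells. In M1 against M0 cells 3 genes of the M2 check list were called higher too, and 2 lower. Arg1 of that list was at 6.47 ± 2 in M1 cells (SD, n = 3). Against M2 cells, nutlin-3a raised 2 of that list and lowered 1, and 10058F4 raised 2 and lowered 2. Nutlin-3a raised all 5 p53 target genes used as a check. Of the 5 genes of the MYC check list (Myc, Ncl, Nolc1, Odc1 and Cad), 10058F4 lowered none in limma, also at an unadjusted p under 0.05, and 1, Odc1, was called higher, at 10.04 with 10058F4 and 9.03 in M2 cells; nutlin-3a lowered 2 and raised 1. Myc mRNA was at 6.51 ± 0.14 with nutlin-3a, 7.47 ± 0.083 with 10058F4 and 7.47 ± 0.15 in M2 cells (SD, n = 3 each).

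Across the 5 groups the genes differed widely in how much they moved. The range between the highest and the lowest group mean was 0.64 for the median gene. It was smallest for P4hb, the classical protein disulfide isomerase, at 0.08. The largest was 2.51, for Pdia4, the disulfide isomerase ERp72, and in all 7 genes had a range of at least 1 (Uggt1, Sdf2l1, Dnajb9, Dnajc3, Pdia4, Xbp1 and Herpud1). M1 cells had the lowest mean for 20 of the 32 genes and the highest for 7. M2 cells given 10058F4 had the highest mean for 14 genes, those given nutlin-3a for 6, M2 cells for 1 (Sel1l) and M0 cells for 4. Such counts were not made over all tested genes, so they do not set the list apart. They also rest on the scaling, as the centring described below moves M1 values up by 0.326 against M0 and 0.242 against M2 cells. Levels ran from 5.34, the mean of Derl3 with 10058F4, to 12.56, the mean of Hspa5 with 10058F4.

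**Figure D1:**
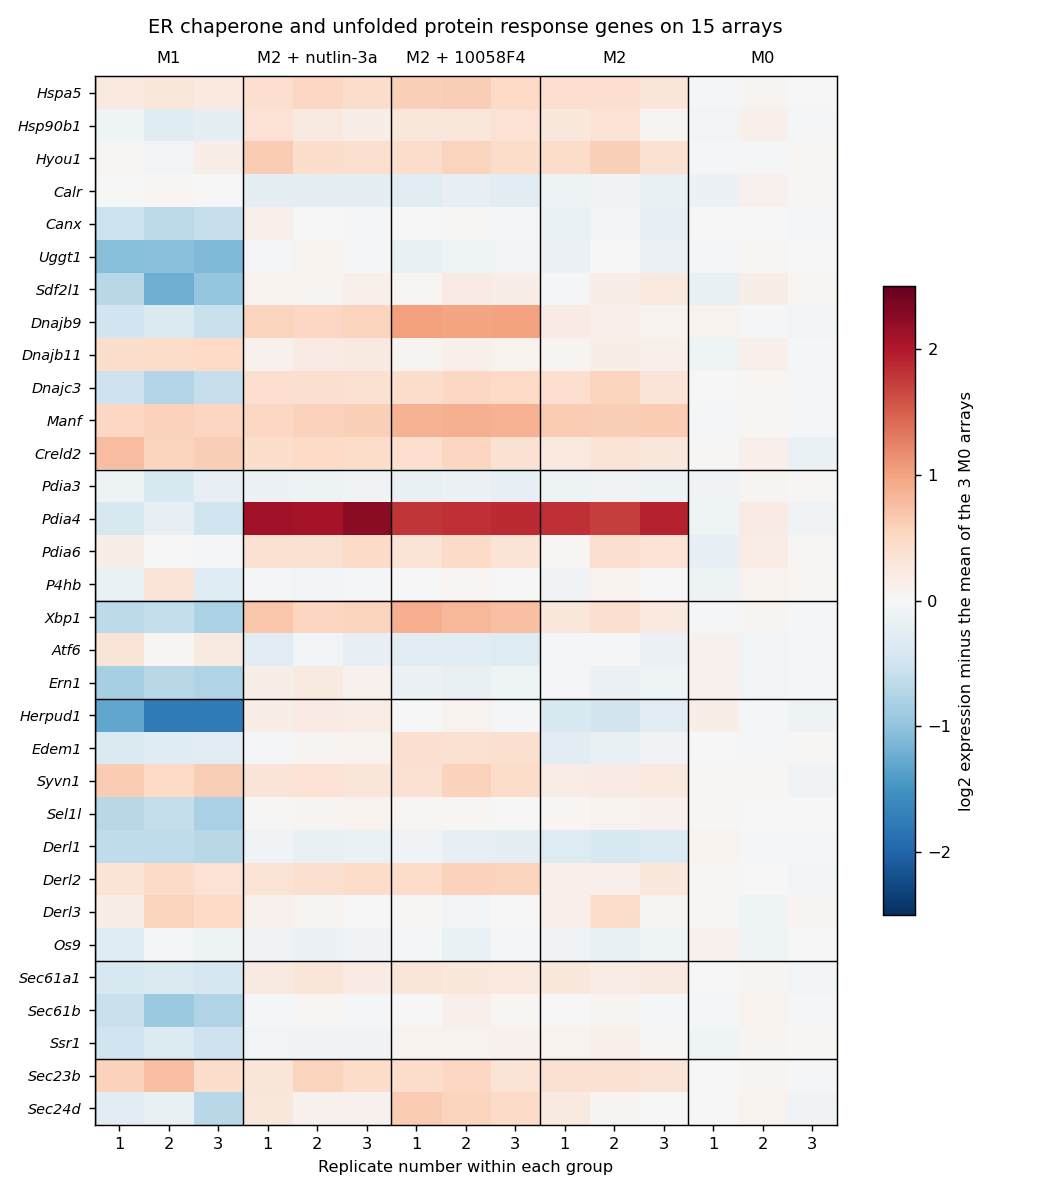
Log2 expression of the 32 genes (rows, in blocks by role) on each of 15 arrays (columns, 3 per group), as the difference from the mean of the 3 M0 arrays on the log2 scale. The M1 columns are mostly below M0, with Herpud1 lowest, while Pdia4 stands out in all 9 columns of the 3 M2 groups and Dnajb9 in the 10058F4 columns.

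The comparison of M2 with M0 cells asked how IL-4 and IL-13 changed these genes. Of the 32, 10 were called higher (31.2%, against 12.7% of all tested genes), 3 were called lower (18.4% of all tested genes) and 19 were not called; either way, 13 were called, against 31% of all tested genes. Of the 32, 1 changed at least 2-fold with a call, against 3.06% of all tested genes. The median difference of the 32 was 0.12 on the log2 scale, against -0.004 over all tested genes. When each array was centred on the median of the tested genes, an alternative chosen after seeing the data, 17 of the 32 were called higher and 1 lower, beside 20.4% and 13.1% of all tested genes. Arrays of both groups did not overlap for 16 of the 32 genes, against 47.2% of all tested genes. Because the values are per array, a change in the number of cells of a kind and a change in RNA per cell cannot be told apart here or in the other comparisons.

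Pdia4, a disulfide isomerase that works with BiP, gave the largest change. Its level was 10.10, 9.99 and 10.20 in M2 cells, against 8.15, 8.47 and 8.18 in M0 cells. Every M2 array lay more than 1 log2 unit above every M0 array, and the difference was 1.83 (SE 0.098, adjusted p = 9.66e-09), or 3.55-fold, the 77th largest of the 13703 genes by absolute size. Pdia6 was at 9.66 ± 0.204 in M2 and 9.39 ± 0.201 in M0 cells (SD, n = 3 each), a difference of 0.26 that did not pass the test (adjusted p = 0.0855). Pdia3, which folds glycoproteins with the lectin chaperones, differed by -0.11 (adjusted p = 0.257) and P4hb by 0.01 (adjusted p = 0.98). The rise of 1 of these 4 isomerases thus stood beside 3 that were not called.

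Among the 12 chaperones and co-chaperones 5 rose and none fell. Manf, a small secreted ER stress protein, was at 10.25, 10.23 and 10.25 in M2 cells, against 9.60, 9.67 and 9.59 in M0 cells. The groups were far apart and the arrays within each close together (difference 0.62, SE 0.051, adjusted p = 5.99e-07). Hspa5, the gene of BiP, was at 12.42, 12.41 and 12.29 in M2 cells, against 11.94, 12.06 and 11.98 in M0 cells. All M2 arrays were higher (0.38, SE 0.06, adjusted p = 0.000283). Hyou1, which exchanges nucleotide on BiP, rose by 0.48 (SE 0.085, adjusted p = 0.000677), and Dnajc3, a BiP co-chaperone that also restrains PERK, rose by 0.43 (SE 0.071, adjusted p = 0.000395). Creld2, an ER stress-induced protein, rose by 0.29 (SE 0.081, adjusted p = 0.0138); the Creld2 call was lost without M0 replicate 3 or without M2 replicate 2 (adjusted p of 0.0517 to 0.0658). The Hyou1 call was lost with probe sets specific by suffix, and that of Dnajc3 with the mean of its probe sets. The 7 chaperone genes that were not called, Hsp90b1, Calr, Canx, Uggt1, Sdf2l1, Dnajb9 and Dnajb11, differed by between -0.14 and 0.23.

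Of the sensors and factors, Xbp1 rose and the other two were not called. Xbp1 was at 11.54, 11.66 and 11.51 in M2 cells, against 11.24, 11.34 and 11.22 in M0 cells. The arrays did not overlap (0.30, SE 0.074, adjusted p = 0.0068); a level of Xbp1 mRNA does not give the amount of its spliced form. Ern1, the gene of IRE1, differed by -0.09 (adjusted p = 0.335) and Atf6 by -0.07 (adjusted p = 0.577). The translocon channel subunit Sec61a1 rose by 0.23 (SE 0.056, adjusted p = 0.0069), while Sec61b and Ssr1 were not called. In the COPII coat Sec23b rose by 0.36 (SE 0.085, adjusted p = 0.00526) and Sec24d was not called.

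The 8 degradation genes held the 3 that fell. Derl1, a derlin that moves misfolded proteins out of the ER, was at 10.92, 10.86 and 10.90 in M2 cells, against 11.32, 11.20 and 11.20 in M0 cells. All M2 arrays were lower (-0.35, SE 0.06, adjusted p = 0.000538). Herpud1, which organises the HRD1 complex, was at 8.26, 8.18 and 8.37 in M2 cells, against 8.81, 8.60 and 8.52 in M0 cells (-0.37, SE 0.11, adjusted p = 0.0197). Edem1, which recognises misfolded glycoproteins, differed by -0.17 (SE 0.062, adjusted p = 0.048). Syvn1, the gene of HRD1 itself, rose by 0.21 (SE 0.065, adjusted p = 0.0252), and Sel1l, Derl2, Derl3 and Os9 were not called. The count of genes called lower was 1 without M2 replicate 1 or without M2 replicate 2, and Derl1 alone of the 3 was kept under every setting run. The Herpud1 call was lost without M0 replicate 1, M2 replicate 1 or M2 replicate 2 (adjusted p of 0.0554 to 0.0906), that of Edem1 without any 1 array but M2 replicate 3 (0.0728 to 0.194), and that of Syvn1 without M0 replicate 3, M2 replicate 2 or M2 replicate 3 (0.0598 to 0.0981).

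Among markers of other cells, the B and plasma cell list had 7 of 11 genes above the 40th percentile in M2 and 6 of 11 in M0 cells, and its summed level was 57.2 to 58.8 in M2 and 54 to 54.6 in M0 cells. Irf4 took most of that difference, with 7.33 in M2 and 3.96 in M0 cells. Irf4 and Prdm1 of that list are also used by macrophages. Of the 7 tested genes of that list 4 were called higher (Irf4 3.37, Pax5 0.46, Prdm1 0.41 and Cd79b 0.33) and 1 lower (Sdc1 -1.10). Cd79a, Cd79b, Pax5, Mzb1, Sdc1 and Prdm1 were above the percentile in both groups, and Ms4a1, Pou2af1, Jchain and Tnfrsf17 in neither. The dendritic cell list had 5 of 7 genes above the percentile in each group, with a summed level of 38.2 to 39.2 in M2 and 33.9 to 35.4 in M0 cells, and Batf3 was called higher in it (9.90 in M2 and 6.99 in M0 cells). Called too were Ncr1 (0.35) of 4 tested T and NK cell markers, and Mpo (0.26) and S100a8 (-0.69) of 7 neutrophil and precursor markers. The stromal list had 5 of 8 genes above the percentile in M2 and 6 of 8 in M0 cells. Its summed level was 40.6 to 43.4 in M2 and 40.5 to 44.4 in M0 cells, and none of its 6 tested genes was called. Col1a2 of that list was at 7.19 in M2 and 7.43 in M0 cells. The part of other cells in these results was not tested.

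**Figure D2:**
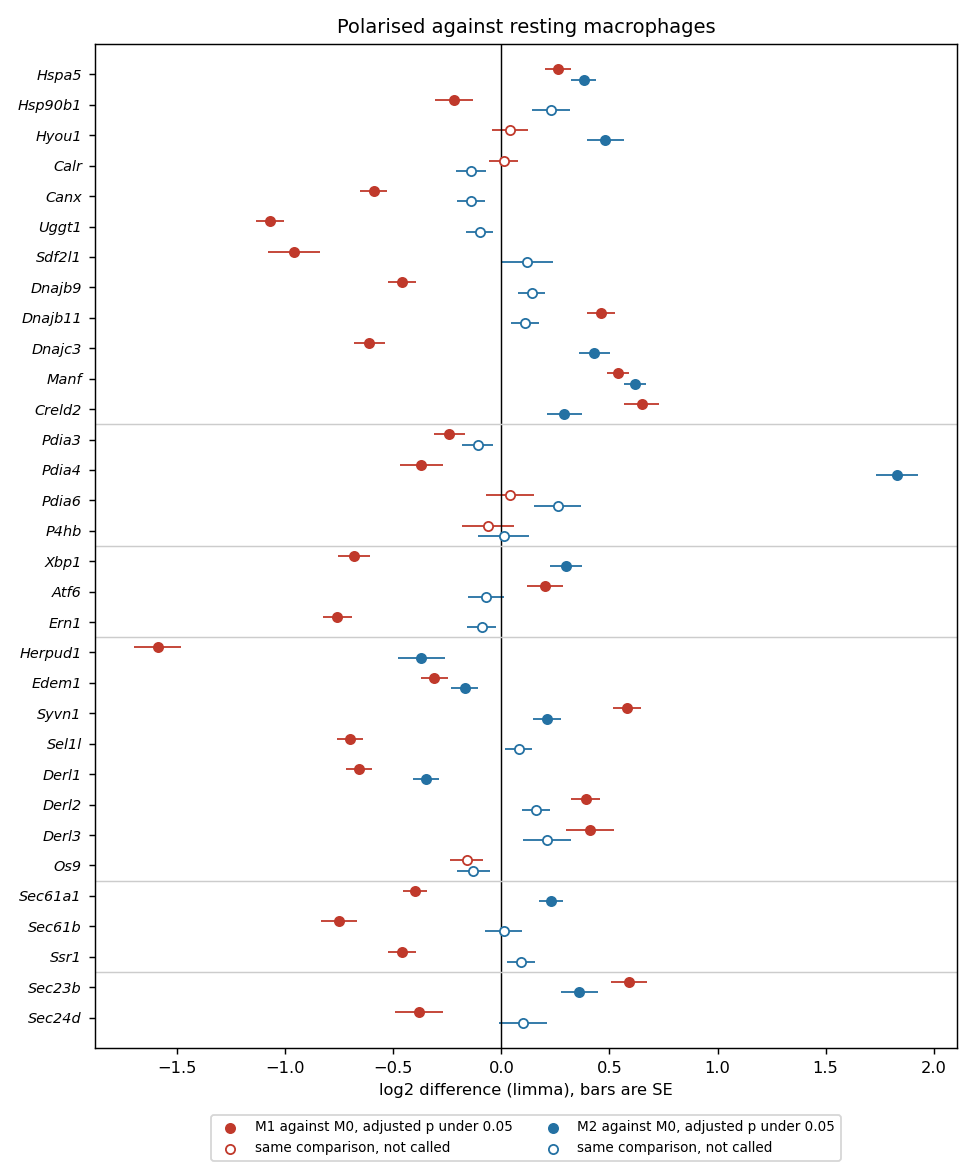
Log2 differences of the 32 genes (rows, in blocks by role) for M1 against M0 (red) and M2 against M0 (blue) with limma's SE as bars; filled points were called. Both comparisons use the same 3 M0 arrays. Pdia4 is at 1.83 in M2 and -0.37 in M1 against M0, and Herpud1 is at -0.37 in M2 and -1.59 in M1 against M0.

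LPS with interferon-gamma, in M1 against M0 cells, changed most of the genes, with more lower than higher. There were 9 called higher (28.1%, against 33.6% of all tested genes), 18 called lower (56.2%, against 39.1%) and 5 not called. In either direction 27 of 32 were called, against 72.7% of all tested genes, so a call by itself says little here. At least 2-fold with a call were 2 of the 32, Herpud1 and Uggt1, against 18.4% of all tested genes. The median difference was -0.28, against -0.005 over all tested genes. Arrays did not overlap for 26 genes, against 71.3% of all tested genes.

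These directions depend on the scaling. The same centring on the median of the tested genes moved every M1 against M0 difference up by 0.326. Over all tested genes the split then became 55.6% higher and 25.6% lower. Of the 32 genes 13 were then called higher and 10 lower. Their median was 0.05, against 0.321 over all tested genes. Because the centring moves every gene alike, it cannot change how the list's median lies to that of all tested genes. The 3′ minus 5′ values, which reflect RNA quality, also differed in M1 cells, but those of beta-actin and Gapdh moved in opposite directions. The 3′ probe set of beta-actin exceeded the 5′ one by 0.178 ± 0.0445 in M1 and 0.351 ± 0.0545 in M0 cells. The same difference for Gapdh was -0.162 ± 0.0349 in M1 and -0.273 ± 0.0153 in M0 cells (SD, n = 3 each). The dendritic cell list had 7 of 7 genes above the 40th percentile in M1 and 5 of 7 in M0 cells, with a summed level of 39.2 to 41.4 in M1 and 33.9 to 35.4 in M0 cells, and 4 of the 7 were called higher, led by Xcr1 (6.05 in M1 and 3.55 in M0 cells). All 4 tested T and NK cell markers were called higher (0.34 to 0.59), with a summed level of the list of 24.1 to 24.5 in M1 and 22.1 to 22.6 in M0 cells. Of 7 neutrophil and precursor markers 5 were called higher and 1 lower, with a summed level of 41.7 to 43.2 in M1 and 39.7 to 41.2 in M0 cells, and of 7 B and plasma cell markers 3 were called higher and 2 lower. Of 6 tested stromal markers 1 was called higher and none lower. The summed level of the stromal list was 39.5 to 45.4 in M1 and 40.5 to 44.4 in M0 cells. The part of RNA quality and of other cells in the M1 results was not tested.

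Herpud1 gave the largest fall. Its level was 7.35, 6.90 and 6.90 in M1 cells, against 8.81, 8.60 and 8.52 in M0 cells. The highest M1 array was more than 1 log2 unit below the lowest M0 array (-1.59, SE 0.11, adjusted p = 9.48e-09; -1.27 after centring on the tested genes). Sel1l, the adapter of HRD1, was at 8.95, 9.04 and 8.82 in M1 cells, against 9.66, 9.63 and 9.63 in M0 cells. The log2 difference was -0.70, with no overlap (SE 0.061, adjusted p = 1.21e-07). Derl1 fell by 0.66 (SE 0.06), and Edem1 by 0.31 (SE 0.062), though Edem1 was at 0.02 after the centring. Syvn1 moved the other way, at 9.32, 9.18 and 9.30 in M1 cells, against 8.74, 8.72 and 8.61 in M0 cells (0.58, SE 0.065, adjusted p = 1.89e-06). The ligase Syvn1 was thus higher while its partners Sel1l and Herpud1 were lower, under every setting run. Derl2 rose by 0.39 (SE 0.066) and Derl3 by 0.41 (SE 0.11), and Os9, a lectin of the same pathway, was not called (-0.16, adjusted p = 0.0801).

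The lectin chaperone cycle was lower in part. Uggt1, which tags unfolded glycoproteins for another round of folding, was at 7.60, 7.61 and 7.56 in M1 cells, against 8.60, 8.71 and 8.66 in M0 cells. The groups lay about 1 log2 unit apart (-1.07, SE 0.063, adjusted p = 1.92e-09). Canx, the membrane lectin chaperone, was at 11.06, 10.93 and 11.02 in M1 cells, against 11.60, 11.61 and 11.57 in M0 cells (-0.59, SE 0.063, adjusted p = 1.11e-06). Calr, its soluble relative, differed by 0.01 (adjusted p = 0.918), and by 0.33 with a call after the centring. Pdia3, their partner, fell by 0.24 (SE 0.07, adjusted p = 0.00648) and was at 0.08 after the centring.

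BiP and its helpers split. Hspa5 was at 12.24, 12.28 and 12.23 in M1 cells, against 11.94, 12.06 and 11.98 in M0 cells, and all M1 arrays were higher (0.26, SE 0.06, adjusted p = 0.00166); this call was lost when quantile normalization was repeated on the tested genes (adjusted p = 0.109). Creld2 had the largest rise of the list (8.62, 8.41 and 8.46 in M1, against 7.87, 7.98 and 7.68 in M0 cells; 0.65, SE 0.081, adjusted p = 5.2e-06). Manf rose by 0.54 (SE 0.051, adjusted p = 3.01e-07) and Dnajb11, the co-chaperone ERdj3, by 0.46 (SE 0.065, adjusted p = 1.79e-05). Sdf2l1, which works with Dnajb11, was lower, at 8.78, 8.26 and 8.51 in M1 cells, against 9.28, 9.62 and 9.52 in M0 cells. That difference was -0.96 (SE 0.12, adjusted p = 6.1e-06). Dnajc3 fell by 0.61 (SE 0.071, adjusted p = 2.94e-06), and Dnajb9, the co-chaperone ERdj4 that holds IRE1 inactive, fell by 0.46 (SE 0.064, adjusted p = 1.5e-05), with -0.14 and an adjusted p of 0.0676 for Dnajb9 after the centring. Hsp90b1, the HSP90-type chaperone of the ER, fell by 0.22 (SE 0.087, adjusted p = 0.0337); that call was lost without M0 replicate 2, M1 replicate 2 or M1 replicate 3 (adjusted p of 0.0766 to 0.143), and after the centring the difference was 0.10. Hyou1 differed by 0.04 (adjusted p = 0.688), and by 0.36 with a call after the centring.

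Among the sensors, Ern1 was at 7.91, 8.05 and 7.99 in M1 cells, against 8.85, 8.68 and 8.69 in M0 cells (-0.76, SE 0.067, adjusted p = 1.47e-07). Xbp1, the mRNA that IRE1 splices, was at 10.61, 10.67 and 10.47 in M1 cells, against 11.24, 11.34 and 11.22 in M0 cells (-0.68, SE 0.074, adjusted p = 1.27e-06). For both genes every M1 array was below every M0 array, and the calls held after the centring (-0.43 for Ern1 and -0.36 for Xbp1). With probe sets specific by suffix alone, which left Xbp1 a dimmer probe set with a mean level of 5.61, the Xbp1 difference was -0.18 and was not called. Atf6 was called higher by 0.20 (SE 0.083, adjusted p = 0.0424) with arrays that overlapped, and the Atf6 call was lost without M0 replicate 2, M0 replicate 3, M1 replicate 1 or M1 replicate 3 (adjusted p of 0.0994 to 0.174).

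All 3 translocon genes were lower in M1 cells. Sec61b was at 10.41, 10.03 and 10.22 in M1 cells, against 10.91, 11.05 and 10.94 in M0 cells (-0.75, SE 0.084, adjusted p = 1.9e-06). Sec61a1 fell by 0.40 (SE 0.056) and Ssr1, a subunit of the translocon-associated complex, by 0.46 (SE 0.064). Only Sec61b of the 3 kept its call after the centring, at -0.42. The coat subunits parted, with Sec23b at 0.59 (SE 0.085, adjusted p = 2.3e-05) and Sec24d at -0.38 (SE 0.11, adjusted p = 0.00823; -0.05 after the centring). Of the isomerases Pdia4 fell by 0.37 (SE 0.098, adjusted p = 0.00407; -0.04 after the centring), while Pdia6 and P4hb were not called (after the centring both were, at 0.36 and 0.27).

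Probe sets of 1 gene did not always move alike in M1 against M0 cells. Of 21 genes with several tested probe sets, 4 had some called higher and others called lower. Atf6 had differences of 0.20 and 0.37 on 2 probe sets and -0.95 (SE 0.089) on another. Derl2 had 0.39 on the probe set used and -0.37 (SE 0.085) on a dimmer one, Edem1 had -0.31 on the one used and 0.39 (SE 0.093) on the other, and Uggt1 had -1.07 and -1.79 on the brighter ones and 0.29 (SE 0.12) on one with a mean level of 4.75. The directions of Atf6, Derl2 and Edem1 in M1 cells therefore rest on the choice of probe set. Both probe sets of Herpud1 were lower, all 5 of Dnajc3 and all 3 of Canx were lower, and both of Syvn1 were higher. In M1 against M2 cells Atf6 was called both ways, and no gene was in the other 4 comparisons.

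**Figure D3:**
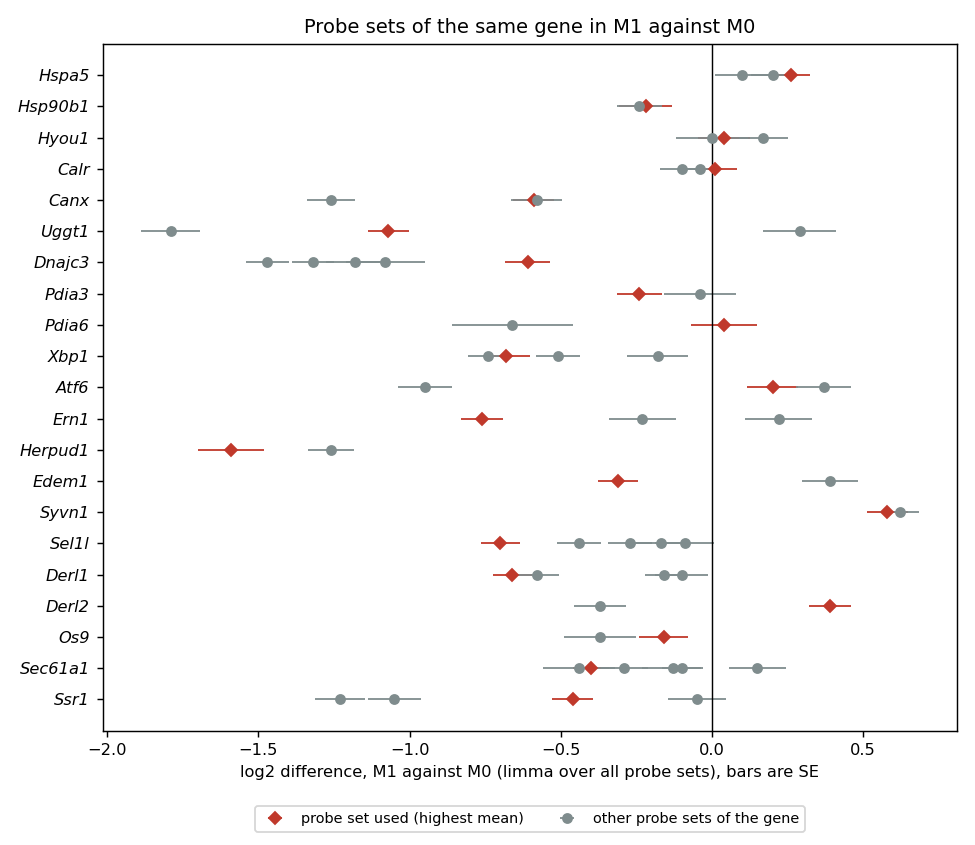
Log2 differences of M1 against M0 for each tested probe set of the 21 genes with several (rows), from a limma fit over all probe sets, with SE as bars; diamonds mark the probe set used. Points of Atf6, Derl2, Edem1 and Uggt1 lie on both sides of 0 with calls, while those of Dnajc3 lie between -1.47 and -0.61.

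M1 and M2 cells, set against each other directly, differed by a called amount in 23 of the 32 genes, against 64.7% of all tested genes, and at least 2-fold in 4, against 17.6%. Of these, 6 were higher in M1 (18.8%, against 28.1% of all tested genes) and 17 were lower (53.1%, against 36.5%). The median was -0.38, against -0.005 over all tested genes. The centring, a shift of 0.242, moved it to -0.13, against 0.237 over all tested genes. Then 10 were called higher and 13 lower, while all tested genes went to 50.3% higher and 26.6% lower. Arrays did not overlap for 27 genes, against 64.9% of all tested genes.

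Pdia4 was at 7.86, 8.07 and 7.77 in M1 cells and at 10.10, 9.99 and 10.20 in M2 cells, a difference of -2.19 (SE 0.098, adjusted p = 9.02e-11). The gap between the highest M1 and the lowest M2 array was again more than 1 log2 unit. Herpud1 differed by -1.22 (SE 0.11). Sdf2l1 differed by -1.08 (SE 0.12), Dnajc3 by -1.03 (SE 0.071), Xbp1 by -0.98 (SE 0.074) and Uggt1 by -0.96 (SE 0.063). These 6 were each called lower in M1 than in M2 cells under every setting run. Higher in M1 were Syvn1 (0.37), Creld2 (0.36), Dnajb11 (0.35), Atf6 (0.27), Derl2 (0.23) and Sec23b (0.23). Syvn1, Creld2 and Dnajb11 kept the call under every setting run; the Sec23b call was lost without M1 replicate 1, M1 replicate 2 or M2 replicate 3 (adjusted p of 0.0503 to 0.107), and that of Atf6 without M1 replicate 1 (0.0552). Hspa5 differed by -0.12 (adjusted p = 0.091) and Manf by -0.08 (adjusted p = 0.172), and neither was called. Both M1 and M2 cells were called above M0 cells for Hspa5, Manf, Creld2, Syvn1 and Sec23b, in comparisons that share the M0 arrays, while Dnajc3, Pdia4, Xbp1 and Sec61a1 were called lower in M1 and higher in M2.

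Nutlin-3a added to M2 cells raised 8 of the 32 genes (25%, against 9.56% of all tested genes) and lowered 0 (5.85%), against 15.4% of all tested genes called either way. No gene of the list reached a 2-fold change, as 1.07% of all tested genes did with a call. The median difference was 0.07, against 0.009 over all tested genes. After the centring on the tested genes 4 of the 32 were called higher (Dnajb9, Herpud1, Xbp1 and Derl2) and 1 lower (Ssr1), beside 6.76% and 9.63% of all tested genes. No gene was called lower in the limma fit, and 1, Ssr1, was lower at an unadjusted p under 0.05 (-0.17, adjusted p = 0.0911); quantile normalization, trended eBayes and array weights also called Ssr1 lower. Arrays did not overlap for 15 genes, against 38.9% of all tested genes. By role, 4 of 8 degradation genes, 2 of 3 sensors and factors, 1 of 4 isomerases and 1 of 12 chaperones rose, and none of the translocon or coat genes did.

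Herpud1 was at 8.80, 8.85 and 8.82 with nutlin-3a, against 8.26, 8.18 and 8.37 in M2 cells. The groups did not overlap, and the difference of 0.55 (SE 0.11, adjusted p = 0.00383) was the largest of the list. Dnajb9 averaged 10.02 ± 0.022 with nutlin-3a (SD, n = 3, the highest array at 10.04), against 9.68, 9.60 and 9.57 in M2 cells (0.41, SE 0.064, adjusted p = 0.000762). Of the 8 rises, those of Herpud1 and Dnajb9 were the ones kept under every setting run.

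Xbp1 was at 11.96, 11.81 and 11.83 with nutlin-3a, against 11.54, 11.66 and 11.51 in M2 cells (0.30, SE 0.074, adjusted p = 0.0141). Ern1 was at 8.88, 8.96 and 8.85 with nutlin-3a, against 8.72, 8.59 and 8.64 in M2 cells (0.25, SE 0.067, adjusted p = 0.0241). Pdia4, already high in M2 cells, was at 10.36, 10.34 and 10.52 with nutlin-3a, against 10.10, 9.99 and 10.20 in M2 cells (0.32, SE 0.098, adjusted p = 0.0441). In each of these the lowest treated array was above the highest M2 array. Derl2 rose by 0.24 (adjusted p = 0.0242), Edem1 by 0.21 (adjusted p = 0.0324) and Derl1 by 0.21 (adjusted p = 0.0337). Leaving out any 1 of the 6 arrays reduced the count of 8 to between 3 and 5: the Derl1 call was lost without any of them, that of Pdia4 without any but M2 replicate 3, and those of Xbp1, Ern1, Derl2 and Edem1 without 3, 4, 4 and 4 of the 6. The adjusted p of the lost calls was 0.0642 to 0.119 for Derl1, 0.0738 to 0.151 for Pdia4, 0.0573 to 0.0643 for Xbp1, 0.0545 to 0.0996 for Ern1, 0.0688 to 0.0951 for Derl2 and 0.0796 to 0.144 for Edem1. Xbp1 and Derl1 were not called either with the mean of their probe sets or with probe sets specific by suffix. Pdia4 and Ern1 were not called with the mean of theirs.

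10058F4 added to M2 cells raised 9 genes (28.1%, against 10.6% of all tested genes) and lowered 0 (10.2%), against 20.9% of all tested genes called either way. No gene of the list reached a 2-fold change, as 1.68% of all tested genes did with a call. The median difference was 0.06, against 0 over all tested genes. Among the 23 not called in limma, 1, Atf6, was lower at an unadjusted p under 0.05 (-0.22, adjusted p = 0.0756), and Derl3 differed by -0.23 (adjusted p = 0.162). Arrays did not overlap for 16 genes, against 44.2% of all tested genes. The 9 were 3 chaperones, Xbp1, 4 degradation genes and the coat subunit Sec24d, with no isomerase or translocon gene.

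Dnajb9 was at 10.50, 10.47 and 10.48 with 10058F4, against 9.68, 9.60 and 9.57 in M2 cells. The 3 treated arrays were within 0.03 of each other and all far above M2 (0.87, SE 0.064, adjusted p = 4.48e-07), or 1.82-fold. Edem1 was at 10.57, 10.56 and 10.57 with 10058F4, against 9.91, 9.99 and 10.09 in M2 cells (0.57, SE 0.062, adjusted p = 1.71e-05), and its other probe set differed by 0.54 (SE 0.093). Xbp1 was at 12.17, 12.10 and 12.01 with 10058F4, against 11.54, 11.66 and 11.51 in M2 cells (0.53, SE 0.074, adjusted p = 0.000162). Dnajb9, Edem1 and Xbp1 had their highest group means with 10058F4. From the dimmer probe set of Xbp1 that is specific by suffix, it was not called (0.21, SE 0.10, in the fit over all probe sets).

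Sec24d, a cargo-binding subunit of the COPII coat, was at 9.72, 9.65 and 9.58 with 10058F4, against 9.32, 9.16 and 9.10 in M2 cells (0.46, SE 0.11, adjusted p = 0.00983). Derl2 was at 10.60, 10.70 and 10.68 with 10058F4, against 10.25, 10.25 and 10.39 in M2 cells (0.36, SE 0.066, adjusted p = 0.00116). Manf was at 10.49, 10.50 and 10.49 with 10058F4, against 10.25, 10.23 and 10.25 in M2 cells (0.25, SE 0.051, adjusted p = 0.00293). Dnajb9, Edem1, Xbp1, Sec24d, Derl2 and Manf were called whichever array was left out. Herpud1 rose by 0.39 (SE 0.11, adjusted p = 0.0193), Syvn1 by 0.26 (SE 0.065, adjusted p = 0.0095) and Hspa5 by 0.19 (SE 0.06, adjusted p = 0.034). The Herpud1 call was lost without M2 replicate 1 or 2 or 10058F4 replicate 1 or 2 (adjusted p of 0.054 to 0.0733), that of Syvn1 without 10058F4 replicate 2 (0.0539), and that of Hspa5 without any 1 array but 10058F4 replicate 3 (0.0516 to 0.141). With the replicate number as a block, Derl1 was called too (0.18, adjusted p = 0.0279, against 0.0515 without the block).

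**Figure D4:**
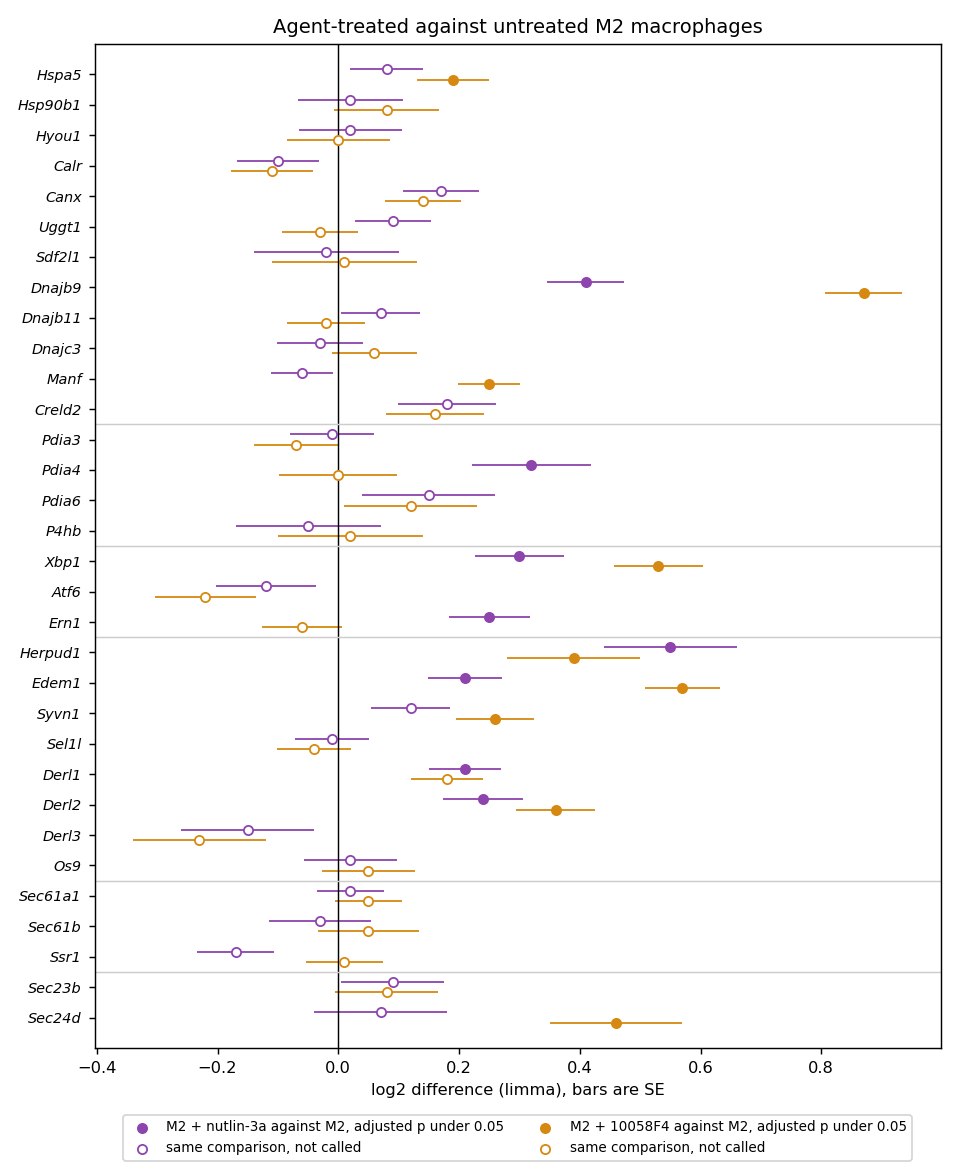
Log2 differences of the 32 genes (rows, in blocks by role) for M2 cells given nutlin-3a (purple) and M2 cells given 10058F4 (orange), each against the same 3 M2 arrays, with limma's SE as bars; filled points were called. Dnajb9 is at 0.41 with nutlin-3a and 0.87 with 10058F4, and Herpud1 is at 0.55 with nutlin-3a and 0.39 with 10058F4.

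Both agents were set against the same M2 arrays, so their values are given side by side. The 3′ minus 5′ value of beta-actin was 0.453 ± 0.0342 with nutlin-3a, 0.489 ± 0.0247 with 10058F4 and 0.382 ± 0.03 in M2 cells (SD, n = 3 each). That of Gapdh was alike, at -0.281 ± 0.0135 with nutlin-3a, -0.272 ± 0.00971 with 10058F4 and -0.283 ± 0.0316 in M2 cells (SD, n = 3 each). The summed level of the B and plasma cell list was 55.2 to 56.6 with nutlin-3a, 53.8 to 54.8 with 10058F4 and 57.2 to 58.8 in M2 cells. With each agent 4 of its 7 tested genes were called lower, Cd79b, Pax5, Prdm1 and Irf4, and Sdc1 was called higher. Of these, Prdm1 and Irf4 are also used by macrophages. Irf4 was at 5.85 with nutlin-3a, 4.83 with 10058F4 and 7.33 in M2 cells. The summed level of the dendritic cell list was 36.8 to 37 with nutlin-3a, 37 to 37.6 with 10058F4 and 38.2 to 39.2 in M2 cells, and Batf3 differed by -1.01 with nutlin-3a and -1.30 with 10058F4, both called. None of 6 tested stromal markers was called with either agent. Their list had a summed level of 42 to 43.5 with nutlin-3a, 39.9 to 44.2 with 10058F4 and 40.6 to 43.4 in M2 cells. The part of RNA quality and of other cells in the results of the agents was not tested. Dnajb9, Xbp1, Herpud1, Edem1 and Derl2 were called higher with each. Pdia4, Ern1 and Derl1 were called with nutlin-3a alone, and Hspa5, Manf, Syvn1 and Sec24d with 10058F4 alone; which of these differ between the agents is given by the direct comparison.

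Directly compared, M2 cells given nutlin-3a and M2 cells given 10058F4 differed in 4 of the 32 genes (12.5%, against 6.96% of all tested genes), 1 higher with nutlin-3a (4.24% of all tested genes) and 3 lower (2.72%). None reached a 2-fold change, as 1% of all tested genes did with a call. After the centring 1 was called higher and 6 lower, beside 3.17% and 3.96% of all tested genes. Arrays did not overlap for 14 genes, against 32% of all tested genes. Dnajb9 was lower with nutlin-3a (-0.46, SE 0.064, adjusted p = 0.000387), as were Edem1 (-0.36, SE 0.062, adjusted p = 0.00233) and Manf (-0.31, SE 0.051, adjusted p = 0.00158), and these 3 were called under every setting run. Manf was at 10.14, 10.19 and 10.21 with nutlin-3a and at 10.49, 10.50 and 10.49 with 10058F4, with no overlap. Ern1 was higher with nutlin-3a, at 8.88, 8.96 and 8.85, than with 10058F4, at 8.59, 8.56 and 8.63 (0.30, SE 0.067, adjusted p = 0.013). The Ern1 call was lost with the mean of its probe sets, without nutlin-3a replicate 2 and without 10058F4 replicate 1 or 2 (adjusted p of 0.05 to 0.0681). With the replicate number as a block, 5 were called lower, with Xbp1 (-0.23, adjusted p = 0.0464, against 0.0887 without the block) and Sec24d (-0.39, adjusted p = 0.0171, against 0.0544) added. Pdia4 was higher with nutlin-3a by 0.32 (SE 0.098), which did not pass the test (adjusted p = 0.0702), and Herpud1 by 0.16 (SE 0.11, adjusted p = 0.485).

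**Figure D5:**
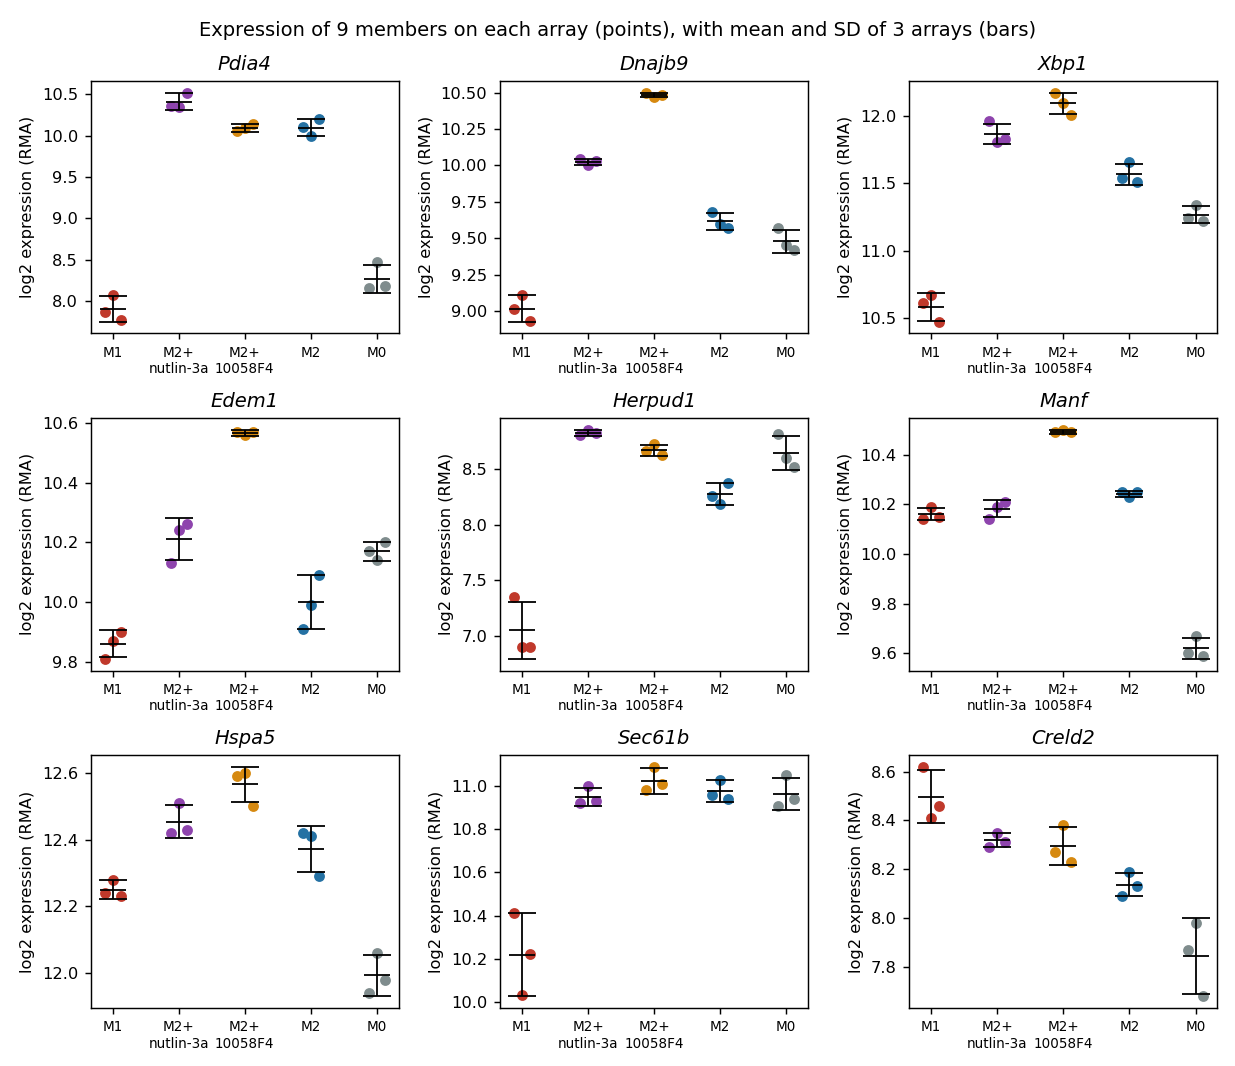
Log2 expression (RMA) of 9 of the genes on each array (points) by group, with the mean and SD of 3 arrays as bars; each panel has its own axis, which does not start at 0. Dnajb9, Xbp1, Edem1 and Manf are highest with 10058F4, Pdia4 is high in the 3 M2 groups, and Herpud1 and Sec61b are lowest in M1.

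The promoter windows with an ER stress element gave a further split of the list. In M2 against M0 cells the median difference of the 9 genes with the element was 0.23 (from -0.14 to 0.43), against 0.08 (from -0.37 to 1.83) for the 18 with a window and none. In M1 against M0 cells it was 0.04 (from -0.61 to 0.65), against -0.42 (from -1.59 to 0.59). With 10058F4 it was 0.12 against 0.03, and with nutlin-3a 0.08 against 0.08. The ranges of both sets overlapped in each comparison, and the difference between the sets was not tested. Pdia4, with the largest rise in M2 cells, and Dnajb9, Edem1 and Xbp1, with the largest rises under 10058F4, held none of the 3 motifs in the 250 bases searched.

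A further 116 genes of the same pathways were listed, also with earlier results of these data known. Of these, 114 had a probe set and 112 were tested. In M2 against M0 cells 25 of the 112 rose (22.3%, against 12.7% of all tested genes) and 13 fell (11.6%, against 18.4%). The largest rises in their lists were those of Creb3l2, an ER-bound transcription factor (1.08, SE 0.077), Stt3b, a catalytic subunit of oligosaccharyltransferase (0.94, SE 0.08), Kdelr3, a receptor that returns escaped ER proteins (0.85, SE 0.12), and the disulfide isomerase Pdia5 (0.62, SE 0.12). Falls were led by Serp1 (-0.47, SE 0.095) and the deglycosylating enzyme Ngly1 (-0.40, SE 0.072). The other extremes were Spcs2 (0.39), Ube2j1 (0.33), Sec11c (-0.36), the protease Mbtps2 (-0.27), Alg5 (-0.24) and Tmed10 (-0.23).

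In M1 against M0 cells 30 of the 112 rose (26.8%, against 33.6% of all tested genes) and 60 fell (53.6%, against 39.1%). Eif2ak3, the gene of the sensor PERK, was at 7.18 in M1 and 8.90 in M0 cells (-1.72, SE 0.09, adjusted p = 5.16e-10). Ero1a, the oxidase that recharges disulfide isomerases, was at 9.97 in M1 and 7.54 in M0 cells (2.43, SE 0.18, adjusted p = 2.36e-08), and Traf2, which IRE1 recruits, rose by 1.79 (SE 0.11). Of the 16 tested sensors, PERK arm genes and proteases 9 rose and 5 fell, and of 19 targeting and translocation genes 2 rose and 13 fell, led by the signal peptidase subunit Sec11c (-1.30, SE 0.11). Of 20 glycosylation genes 5 rose, led by Gmppb (1.22, SE 0.084), and 13 fell, led by Alg5 (-1.04, SE 0.076). Fkbp7 (-1.93), Edem3 (-0.86), Mcfd2 (-0.91), Sec24b (1.21), Rnf139 (0.51) and Ssr2 (0.30) were the other extremes.

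With nutlin-3a 16 of the 112 rose (14.3%, against 9.56% of all tested genes) and 2 fell (1.79%, against 5.85%) against M2 cells, and 7 of the 16 were in the list of sensors, PERK arm genes and proteases. Trib3, a target of the PERK arm, rose by 1.16 (SE 0.16, adjusted p = 0.000354), and Nfya, a subunit of the factor that binds CCAAT, fell by 0.42 (SE 0.072). With 10058F4 18 rose (16.1%, against 10.6% of all tested genes) and 9 fell (8.04%, against 10.2%), led by Creb3l2 (0.71, SE 0.077) and Atf3 (-0.75, SE 0.13). Gfpt1, the first enzyme of the hexosamine pathway, rose by 0.46 (SE 0.067) with nutlin-3a and by 0.56 (SE 0.067) with 10058F4. Between the agents 3 were higher with nutlin-3a (2.68%, against 4.24% of all tested genes) and 1 lower (0.893%, against 2.72%).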

How the data were processed

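Total RNA of 15 samples was read on one-colour arrays. The deposited table holds log2 expression of each probe set; the submitters' processing notes name RMA, with no version that could be read here, and the base of the logarithm was judged from the range of values. RMA gives all arrays 1 distribution of signals, so a shift of most genes would be hidden. The number of arrays limits the precision.

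Of 45101 probe sets, 64 were controls; 34945 name 1 gene, 932 several and 9160 none in the platform annotation. A gene was tested where 3 or more arrays had it above their 40th percentile (13703, with 4490 removed). Each comparison was a contrast of limma's lmFit and eBayes on 15 arrays with 5 group means and 10 residual degrees of freedom; the procedure was tested on simulated data. All 32 genes were accounted for; of other genes the extremes of each list were named. The 32 genes and the lists were chosen with earlier results of these data known.

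Same-numbered arrays' deviations correlated with r of 0.23 to 0.42 between M2 and M0 cells; between each agent and M2 cells, and between the agents, every pair was from 0.31 to 0.41. All of these passed the limit of 0.1 for a pairing, while pairs of M1 arrays with M0 arrays started at 0.055 and with M2 arrays at 0.063. Promoter letters came from RefSeq (GRCm38.p6). R 4.3.3, limma 3.58.1, Python 3.11.15, pandas 2.3.3 and matplotlib 3.10.9 were used.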

Additional observations from a re-analysis of the deposited data

How the results depend on the processing

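Counts below are of the 32 genes, and medians are log2 differences. Centring on the median of the tested genes was chosen after seeing the data. Its medians over all tested genes are given in parentheses. In M1 against M0 the centring gave 10 lower and a median of 0.05 (0.321). In M2 against M0 it gave 17 higher, 1 lower and a median of 0.20 (0.081). In M1 against M2 it gave 10 higher and a median of -0.13 (0.237). For nutlin-3a against M2 it gave 4 higher, 1 lower and a median of 0.01 (-0.053). For nutlin-3a against 10058F4 it gave 6 lower and a median of -0.06 (-0.042). Among differences called before or after it, it turned those of Hsp90b1 (0.10), Pdia3 (0.08), P4hb (0.27) and Edem1 (0.02) in M1 against M0 and of Manf (0.16) and Os9 (0.21) in M1 against M2. Of differences not called either way, it turned Os9 (0.17) in M1 against M0. In M1 against M2 it turned Hspa5 (0.12), Pdia3 (0.11), Pdia6 (0.01), P4hb (0.18) and Edem1 (0.10). Small uncalled differences turned in other comparisons too. Among them were Atf6 (0.02) in M2 against M0, Hsp90b1 (-0.04) for nutlin-3a against M2 and Calr (-0.04) for nutlin-3a against 10058F4.

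The mean of all probe sets gave medians of -0.18 in M1 against M0 and -0.19 in M1 against M2, 5 lower in M2 against M0, and 0 higher and 6 lower for nutlin-3a against 10058F4. Among differences called before or after it, it turned Pdia4 (0.02), Pdia6 (-0.31), Atf6 (-0.13) and Edem1 (0.04) in M1 against M0 and Edem1 (0.33) in M1 against M2, and probe sets specific by suffix put Derl1 at 0.00 in M1 against M2. Repeated quantile normalization gave 1 lower in M2 against M0, 3 higher, 1 lower and a median of 0.01 for nutlin-3a against M2, and 5 lower between the agents. No filter on low values gave 5 higher with nutlin-3a. Trended and robust eBayes and array weights each gave 1 lower with nutlin-3a and 2 higher between the agents, with 5 and 6 lower there. Fitting 6 arrays alone gave 1 lower with 10058F4 and 2 higher between the agents, and array weights gave 2 lower with 10058F4. The replicate block gave 5 lower between the agents; in the paired comparisons it changed no call of the 32 other than those of Derl1, Xbp1 and Sec24d given above, and between M1 and M2 cells, whose numbers were not shown to pair arrays, it added a call of Edem1 (adjusted p = 0.0442). A stricter filter and centring on each array's median over all probe sets kept every count of calls within 1.5 times. The causes were not tested.

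With each array left out in turn, M1 against M0 gave 8 to 9 higher, 17 to 19 lower and medians of -0.30 to -0.24, M2 against M0 gave 8 to 12 higher, 1 to 3 lower and 0.09 to 0.15, and M1 against M2 gave 5 to 7, 17 to 19 and -0.39 to -0.31. Nutlin-3a gave 3 to 5 higher, 0 lower and 0.04 to 0.08, 10058F4 gave 6 to 9, 0 and 0.05 to 0.08, and nutlin-3a against 10058F4 gave 0 to 1, 3 and -0.03 to 0.01.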
